A study of Homo sapiens with 3 samples.

Results

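The golgins and the carriers of ER-Golgi vesicle transport were followed in HSC-3 cells, which derive from a squamous cell carcinoma of a human tongue. The group was chosen by gene symbol: 49 symbols were listed for golgins, proteins of the ER-Golgi intermediate compartment (ERGIC), COPI and COPII coat subunits, p24 (TMED) proteins, cargo receptors and SNAREs. Of these, 48 were measured, by 54 of 24451 probes and as 48 of 17614 genes on the array. GOLM1 and SEC13 were found under the older symbols C9orf155 and SEC13L1, and KDELR2 was not analysed here. All 48 lay above the blank spots on all arrays, so no member was lost to the filter on dim probes.

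HSC-3 RNA was measured on 1-colour arrays in 3 conditions, with 1 array each. The shDKK3 cells carried a short hairpin RNA (shRNA) aimed at DKK3, delivered by a lentiviral vector with GFP. DKK3 encodes a glycoprotein that cells secrete. The shScr cells carried a scrambled, non-effective shRNA in a lentiviral GFP vector, and both of these lines were kept in puromycin. The parental cells had neither vector nor puromycin, and all 3 grew in the same serum-supplemented medium. With 1 array per condition there was no replicate and no test, and each difference is one between arrays. Whether the shRNA lines were clones or pools was not given in the labels. A free-text label names the shDKK3 sample as DKK3 transfection, and the groups here follow the shRNA label. As the RNA was bulk, fewer cells with a transcript and less transcript per cell cannot be told apart.

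Proteins made in the endoplasmic reticulum leave it in vesicles coated with COPII, which the small GTPase SAR1 starts to build and which SEC23, SEC24, SEC13 and SEC31 complete. They pass the ERGIC to the Golgi, where long coiled-coil proteins, the golgins, catch vesicles and SNAREs fuse them. COPI vesicles, started by ARF GTPases, carry escaped ER proteins and cargo receptors back. This traffic supplies the secreted proteins, integrins and desmosomal proteins of a squamous cell.

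The following values are used below in the same way throughout. The authors' deposited intensity is linear, with a median of 25 on each array. The normalised level is the background-corrected, quantile-normalised intensity on the log2 scale, and a difference is always a difference of these log2 levels. Genes were counted at a difference of at least 2-fold. The spread of the difference between the shScr and parental arrays among the 500 genes of nearest level (robust SD) is given as a yardstick. It describes genes between 2 arrays and is no replicate error. It is printed for few genes, and a gene said to be above or below a control may lie within it.

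At the median, probes exceeded the blanks by 18.2 units on shDKK3, 28.4 on shScr and 25.1 on parental. All 11 measured squamous keratinocyte markers were above the blanks on each array, with KRT5 at a deposited intensity of 18500 on the shDKK3 array, 6273 on shScr and 4989 on parental. TP63, the squamous lineage factor, stayed below the array median, at 21.5, 24.8 and 18.1 in the same order. The 8 fibroblast markers summed to 148, 114 and 132 and the 5 measured leukocyte markers to 55.4, 38.8 and 40.4. LUM, PDGFRA and PTPRC were empty in the deposited table on all 3. DCN (92.0, 72.9 and 83.5) and PDGFRB (48.6, 38.6 and 42.5) were above the array median and made up most of the fibroblast sums. CD14 (31.9, 25.1 and 23.8) made up most of the leukocyte sums. The 4 measured endothelial markers summed to 44.9, 31.9 and 32.5. The 5 embryonic kidney and neuronal markers summed to 86.3, 62.5 and 64.0. DKK3 itself had 170 on the shDKK3 array, 226 on shScr and 309 on parental. Its difference was -0.39 to shScr and -0.71 to parental, so the targeted gene did not reach 2-fold. The yardstick at its level was 0.39. RefSeq lists pseudogene copies for several members, among them 3 for GOLGA4, 1 each for GOLGA5, SEC24A and TMED2, 5 for ARF4 and 4 for SAR1A, and whether their transcripts add to these probes was not tested.

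As a group, the members had lower signal on the shDKK3 array than on both controls. Of 48 members, 7 were at least 2-fold lower than on shScr and 0 higher, where 4.48% of all 15148 compared genes were lower and 2.96% higher. The median difference of the members was -0.39, against 0.03 for all genes, and 37 members were below 0, where 44.0% of all genes were. Against parental, the members at least 2-fold lower numbered 4 and those higher 0, where 3.04% of 14962 genes were lower and 0.862% higher. The median of the members was -0.24, against 0.03 for all genes, and 33 members were below 0, where 42.2% of all genes were. Both comparisons use the same shDKK3 array and so are not independent. The controls also differed: for shScr minus parental 16 members were below 0 and 32 above, where 48.8% of all genes were below 0. The median of that difference was 0.094 for the members, against 0.004 for all genes. Of the 48 members, 4 were at least 2-fold lower than on each control, where 2.05% of all genes were, and 0 were higher, where 0.564% of all genes were. They were GOLGA4, ERGIC2, COPB1 and TMED7.

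At the smaller threshold of 1.5-fold, 14 members were lower and 3 higher against shScr, where 11.5% of all genes were lower and 9.54% higher. Against parental 10 were lower and 6 higher, where 9.38% were lower and 6.83% higher.

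The level of the genes bears on these counts, because the offset of the background correction keeps the differences of dim genes small. Genes were therefore split by mean level into 3 equal classes, a split chosen after the values had been seen, and 34 of the 48 members fell in the brightest. Among those 34, 6 (17.6%) were at least 2-fold lower than on shScr, where 11.4% of all genes of that class were. Against parental 4 of the 34 (11.8%) were, where 8.23% of the class were. Lower than both controls were 4 of the 34, against 5.80% of the class. Beside genes of like level, the share of lower members thus stood less far above the background. In that class 70.6% of the members and 46.7% of all genes were below 0 against shScr, with medians of -0.40 and 0.07.

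**Figure D1:**
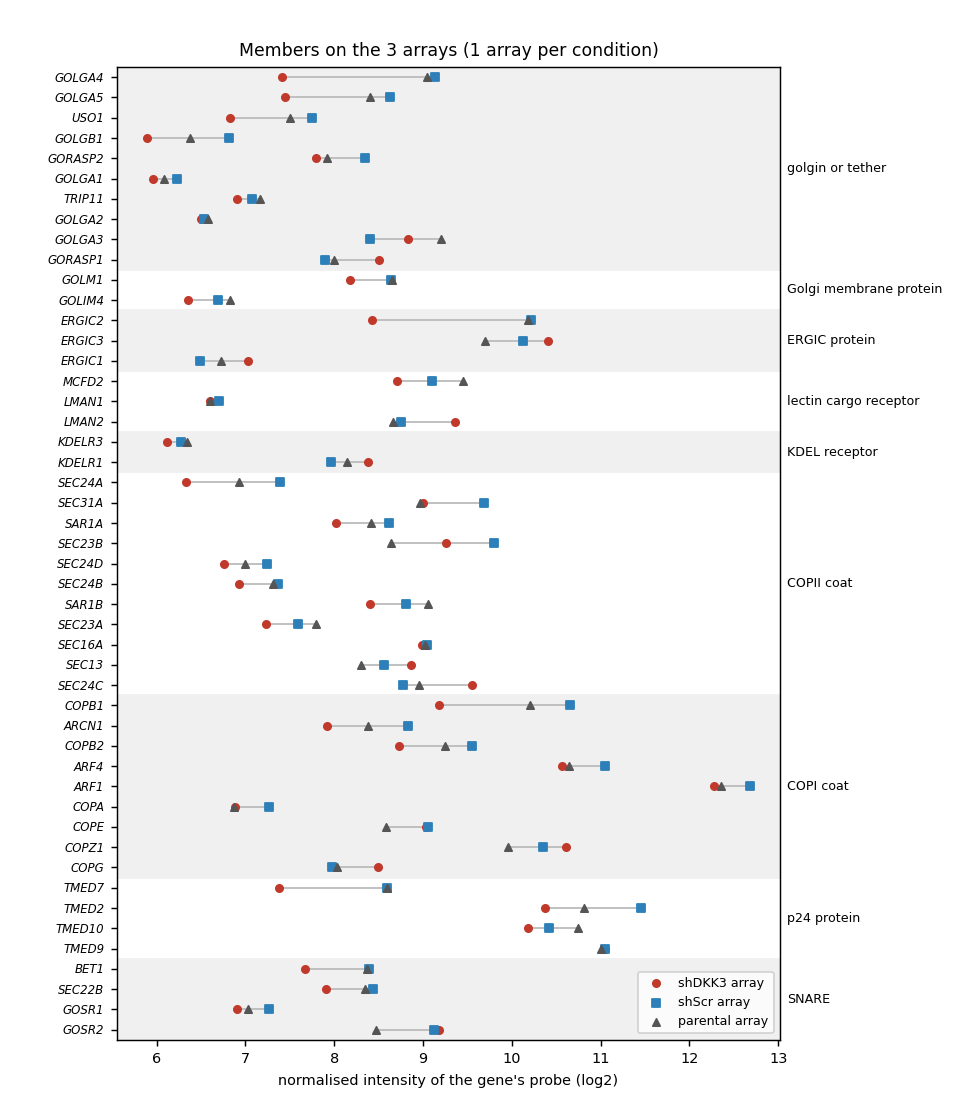
Normalised log2 intensity of each of the 48 measured members on the shDKK3, shScr and parental arrays (1 array per condition, no error bars), grouped by role. Points of 1 row can be compared; rows are different probes. GOLGA4, ERGIC2, COPB1 and TMED7 have their shDKK3 point well left of both control points, while SEC24C, LMAN2 and GORASP1 have it right of both.

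Promoter sequences of the members were looked at because so many members lay on one side. RefSeq windows (GRCh38.p14) of 250 bases before to 50 bases after the transcription start were found for 42 of the 48 members, 57 windows in all. Some genes have more than 1 window. Searched on both strands were TGACGTGG, known as the unfolded-protein response element bound by XBP1 and ATF6, its core TGACGT, and CCACG and CCAAT, the parts of the ER stress response element. The motifs overlap, since the reverse complement of TGACGTGG, CCACGTCA, holds CCACG. The motifs were chosen after the values had been seen, and their shares describe the listed genes without use of the array values. Windows of the other pathway genes were not counted as a set. TGACGTGG was present in 11 of 57 member windows (19.3%), against 0.729% of all 35116 windows and 0.761% of 22199 windows of protein-coding genes. TGACGT was present in 35.1% of member windows, 7.98% of all windows and 8.94% of windows of protein-coding genes. In the same order, CCACG was present in 86.0%, 38.1% and 43.1%, and CCAAT in 33.3%, 34.6% and 34.7%. Member windows had a median GC content of 66.0%, against 58.7% for all windows and 62.3% for those of protein-coding genes. This difference in GC content was not removed from the shares.

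Of the members at least 2-fold lower than on shScr, 4 had a window with TGACGT, and 2 (TMED2 and TMED7) had a window without it. No window was found for GOLGA4, which was also at least 2-fold lower. Among all members with a window, 18 had TGACGT and 24 did not. Only the windows with TGACGT of the 4 lower members are printed, 5′ to 3′ on the strand of the gene. Capitals mark TGACGTGG where the whole of it is present, on either strand, and otherwise TGACGT. The ERGIC2 window lies at chr12:29381123-29381422 on the minus strand, that of COPB1 at chr11:14499762-14500061 on the minus strand, that of GOLGA5 at chr14:92794055-92794354 on the plus strand and that of SEC24A at chr5:134648535-134648834 on the plus strand.
ERGIC2: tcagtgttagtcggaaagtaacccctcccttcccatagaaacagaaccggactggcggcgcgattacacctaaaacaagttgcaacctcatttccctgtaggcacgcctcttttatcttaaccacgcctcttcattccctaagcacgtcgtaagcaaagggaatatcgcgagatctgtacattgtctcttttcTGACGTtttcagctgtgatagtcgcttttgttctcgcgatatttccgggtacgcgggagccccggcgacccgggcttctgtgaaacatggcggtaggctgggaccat
COPB1: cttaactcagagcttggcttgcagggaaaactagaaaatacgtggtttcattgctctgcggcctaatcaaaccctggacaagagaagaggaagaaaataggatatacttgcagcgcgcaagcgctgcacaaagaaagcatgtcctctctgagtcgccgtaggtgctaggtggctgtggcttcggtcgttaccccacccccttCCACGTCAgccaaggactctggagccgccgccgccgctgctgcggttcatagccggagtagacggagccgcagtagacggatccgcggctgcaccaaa
GOLGA5: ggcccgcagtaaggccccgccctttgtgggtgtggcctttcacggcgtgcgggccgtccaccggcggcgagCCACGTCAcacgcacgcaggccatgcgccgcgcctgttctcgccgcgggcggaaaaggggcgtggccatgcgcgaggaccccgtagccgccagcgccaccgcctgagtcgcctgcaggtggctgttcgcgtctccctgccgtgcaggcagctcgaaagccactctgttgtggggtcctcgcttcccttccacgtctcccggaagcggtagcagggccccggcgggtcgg
SEC24A: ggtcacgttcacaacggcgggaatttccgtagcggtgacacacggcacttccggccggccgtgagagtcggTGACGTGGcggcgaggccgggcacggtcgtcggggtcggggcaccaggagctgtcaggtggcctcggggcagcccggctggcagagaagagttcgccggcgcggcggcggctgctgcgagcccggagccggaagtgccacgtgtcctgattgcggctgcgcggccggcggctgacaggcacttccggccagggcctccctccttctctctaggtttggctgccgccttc
The match begins 57 bases before the transcription start in ERGIC2, 48 in COPB1 and 179 in both GOLGA5 and SEC24A. COPB1, GOLGA5 and SEC24A hold all of TGACGTGG, and ERGIC2 holds the core alone. The 10 members with TGACGTGG were ARF1, COPA, COPB1, COPB2, GOLGA1, GOLGA5, KDELR3, SEC16A, SEC23A and SEC24A. All 10 were below 0 against shScr, with a median difference of -0.40. Of the 32 members whose windows lack TGACGTGG, 22 were below 0, with a median of -0.35. These counts depend on the scaling. In the deposited values ARF1 and SEC16A of the 10, and COPE, GOLGA2 and TMED10 of the 22, were above shScr. Against parental 9 of 10 and 20 of 32 were below 0, with medians of -0.38 and -0.19. Split by the core TGACGT, the medians against shScr were alike: 15 of 18 members with it and 17 of 24 without it were below 0, with medians of -0.37 and -0.37. Against parental 12 of 18 and 17 of 24 were, with medians of -0.12 and -0.38, so the order was the opposite of that for TGACGTGG. A match in a window is a description of letters and was not tested as a binding site.

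Among the golgins, GOLGA4 and GOLGA5 had the largest differences. GOLGA4, golgin-245 of the trans-Golgi, had a deposited intensity of 82.7 on the shDKK3 array, 339 on shScr and 346 on parental. The controls were close to each other and the shDKK3 value lay far below both. Its difference was -1.73 to shScr (3.31-fold lower) and -1.64 to parental (3.12-fold lower), and the yardstick at its level was 0.39. A second GOLGA4 probe had 48.2, 288 and 216 in the same order and differences of -1.97 and -1.49. GOLGA5, golgin-84, which is anchored in the membrane and captures COPI vesicles, had 85.8 on the shDKK3 array, 233 on shScr and 212 on parental. It was at -1.18 to shScr, and at -0.95 to parental it stopped just short of 2-fold. Its second probe lay close to the first, at -1.17 and -0.81.

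The large golgins and tethers below these had smaller differences on the normalised scale. GOLGB1, giantin, had a deposited intensity of 5.3 on the shDKK3 array, 40.6 on shScr and 23.1 on parental, and its normalised differences were -0.92 and -0.49. The deposited intensities put it 7.66-fold below shScr, and the normalised levels 1.89-fold. USO1, the tether p115 that binds COPII vesicles to the Golgi, had 42.6 on shDKK3, 112 on shScr and 95.9 on parental, with differences of -0.92 and -0.67. TRIP11, the cis-Golgi golgin GMAP-210, had 1 probe at -0.16 and -0.26 and a second at -0.80 and -0.55, so its probes disagreed in size. GOLGA1, golgin-97, was at -0.27 and -0.12, and GOLGA2, the cis-Golgi protein GM130, at -0.034 and -0.079.

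GOLGA3 and GORASP1 went against the other golgins. GOLGA3, golgin-160, had 299 on the shDKK3 array, 196 on shScr and 384 on parental, so the shDKK3 value lay between the controls (0.42 and -0.37). GORASP1, which stacks cis-Golgi cisternae, had 224 on shDKK3, 129 on shScr and 151 on parental and was above both controls, at 0.60 and 0.50. Its paralog GORASP2, of the medial Golgi, was at -0.55 and -0.12. In all, 8 of the 10 golgins and tethers were below 0 against shScr and 9 of 10 against parental, with medians of -0.41 and -0.31. Of all genes, 44.0% and 42.2% were below 0. The Golgi membrane proteins GOLM1 and GOLIM4, which cycle between the Golgi and endosomes, were also below both controls without reaching 2-fold. GOLM1 had 168 on shDKK3, 237 on shScr and 258 on parental (-0.47 to each), and GOLIM4 was at -0.34 and -0.48.

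The ERGIC proteins split. ERGIC2, which cycles between ER and Golgi in a complex with ERGIC3, had a deposited intensity of 208 on the shDKK3 array, 724 on shScr and 791 on parental. The difference was -1.80 to shScr (3.48-fold lower) and -1.76 to parental (3.39-fold lower), with a yardstick of 0.42. Among all compared genes, this placed ERGIC2 at percentile 0.284 against shScr and 0.080 against parental. Its second probe had 154, 940 and 764, and differences of -2.52 and -2.06. ERGIC3, its partner, had 1081 on shDKK3, 678 on shScr and 562 on parental and lay above both controls, at 0.28 and 0.70. The yardstick of ERGIC3 was 0.43, so its difference to shScr lay within it. ERGIC1, of the same family, had 54.3, 24.9 and 40.1, with differences of 0.54 and 0.31. The 3 ERGIC proteins thus spanned 2.34 on the log2 scale in their differences to shScr and 2.47 in those to parental.

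Cargo receptors gave no common direction. LMAN1, the lectin that carries glycoproteins out of the ER, was at -0.10 and -0.0020, with 31.5 on shDKK3, 34.7 on shScr and 33.7 on parental. MCFD2, its calcium-binding partner for coagulation factors, was lower, at -0.40 and -0.74. LMAN2, a lectin of the early secretory pathway, had 470 on shDKK3, 259 on shScr and 260 on parental and was above both, at 0.61 and 0.70. The receptors that return KDEL proteins to the ER also split, with KDELR1 at 0.42 and 0.23 and KDELR3 at -0.16 and -0.23. Their yardsticks were 0.35 and 0.11, so the difference of KDELR1 to parental lay within its own. KDELR1 had 202 on shDKK3, 137 on shScr and 172 on parental. KDELR3 was dimmer, with 12.5, 16.2 and 21.6.

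**Figure D2:**
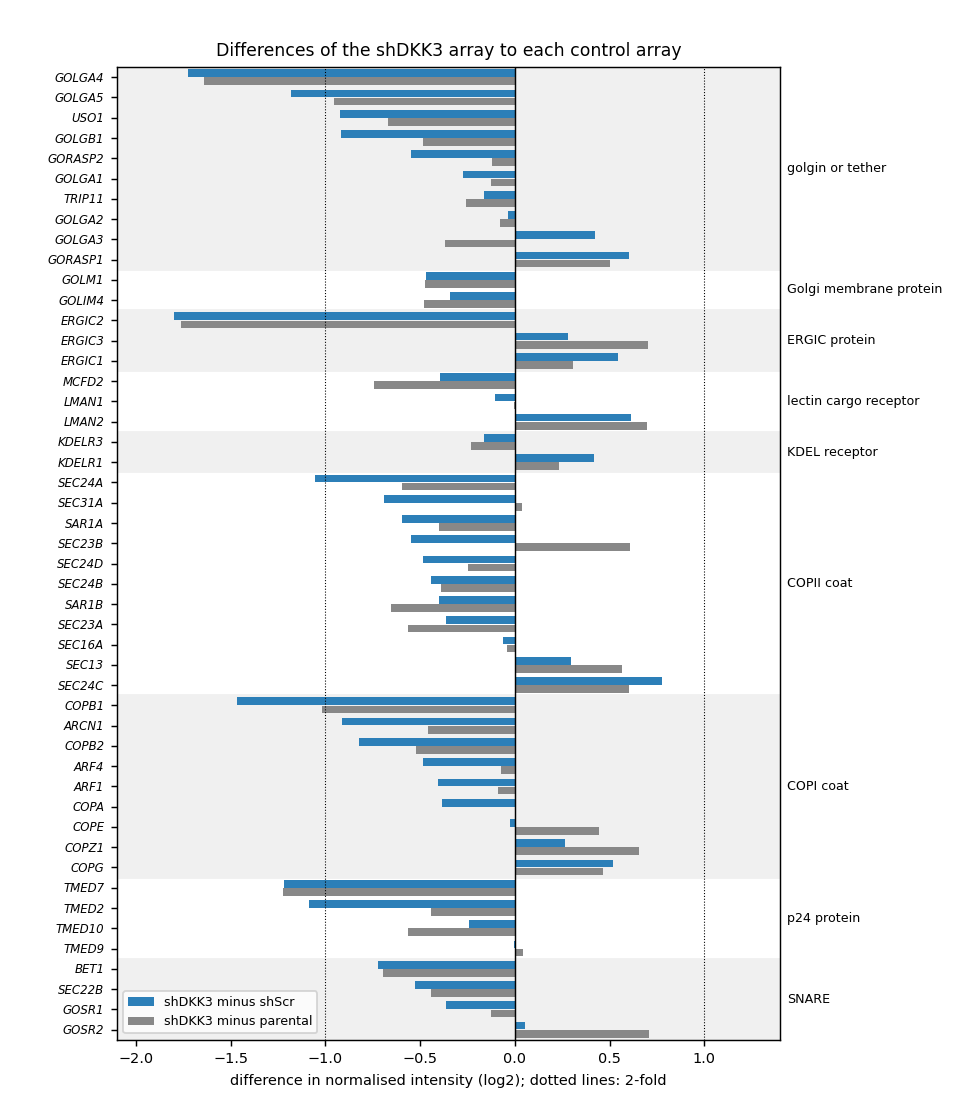
Difference in normalised log2 intensity of each member between the shDKK3 array and the shScr array (blue) and between the shDKK3 array and the parental array (grey), with 2-fold marked by dotted lines. Bars reach past 2-fold to the left for 7 members against shScr and 4 against parental, and past 2-fold to the right for none.

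Of the COPII coat, SEC24A was the member furthest below shScr. SEC24A, which selects cargo in the inner coat, had 20.3 on the shDKK3 array, 78.3 on shScr and 52.4 on parental, and differences of -1.06 and -0.59. In 8 of 12 alternative settings (thresholds aside) SEC24A was at least 2-fold below shScr, with a range of -2.05 to -0.22. A second SEC24A probe, close to the blanks at 4.5, 7.2 and 9.07, gave -0.14 and -0.15. The other SEC24 paralogs did not follow as a set. SEC24B had 47.8 on shDKK3, 77.0 on shScr and 79.9 on parental (-0.44 and -0.39). SEC24D had 38.9, 67.4 and 56.9 (-0.48 and -0.25). SEC24C, in contrast, had 548 on shDKK3, 264 on shScr and 322 on parental and was at 0.77 and 0.60. The distance between SEC24C and SEC24A was 1.83 against shScr and 1.20 against parental on the log2 scale. SAR1A and SAR1B, closely related GTPases that start the coat, lay within 0.26 of each other. SAR1A had 147 on shDKK3, 232 on shScr and 216 on parental (-0.60 and -0.40). SAR1B had 206, 270 and 350 (-0.40 and -0.65).

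SEC23B was the only member past 2-fold between the control arrays. SEC23B, a subunit that activates the SAR1 GTPase, had 432 on shDKK3, 549 on shScr and 256 on parental. The shScr array was 1.16 above parental, and the shDKK3 array lay between them, at -0.55 to shScr and 0.61 to parental. Between the controls 1 of 48 members was at least 2-fold higher on shScr and 0 lower, where 0.404% of 14850 genes were higher and 0.983% lower. SEC23A, its paralog, had 68.5 on shDKK3, 95.7 on shScr and 125 on parental and was at -0.36 and -0.56. SEC31A of the outer cage had 346 on shDKK3, 504 on shScr and 324 on parental, so its -0.69 to shScr stood beside 0.036 to parental. SEC13, the partner of SEC31A in the cage, was at 0.30 and 0.56, and SEC16A, the scaffold of ER exit sites, at -0.061 and -0.043. Of 11 COPII members, 9 were below 0 against shScr and 7 against parental, where 44.0% and 42.2% of all genes were.

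COPB1 led the COPI coat. COPB1, the beta subunit, had a deposited intensity of 407 on the shDKK3 array, 970 on shScr and 806 on parental, differences of -1.47 (2.77-fold lower) and -1.02 (2.02-fold lower), and a yardstick of 0.43. Scaling to the 75th percentile (-0.97) and the authors' deposited table (-0.98) put it just short of 2-fold against parental. ARCN1, the delta subunit, followed with 134.5 on shDKK3, 273 on shScr and 209 on parental, at -0.91 and -0.46. COPB2, the beta-prime subunit, was at -0.82 and -0.52.

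The remaining COPI subunits differed less or the other way. COPA, the alpha subunit, was at -0.38 and 0.0086. COPE, the epsilon subunit, was at -0.026 and 0.44. COPG, the gamma subunit now named COPG1, had 222 on shDKK3, 137 on shScr and 155 on parental and was above both, at 0.52 and 0.46. COPZ1, the zeta subunit, had 1261, 787 and 672 and was at 0.27 and 0.66. The GTPases ARF1 (-0.41 and -0.086) and ARF4 (-0.49 and -0.073) were below shScr and near parental. ARF1 had a deposited intensity of 4375 on shDKK3, 3533 on shScr and 3722 on parental, so that the direction of ARF1 turned with the scaling of the arrays. ARF4 had 1211, 1250 and 1096. COPI subunits assemble into 1 complex in fixed proportion, and here their differences to shScr ran from -1.47 to 0.52. Of 9 COPI members, 7 were below 0 against shScr and 5 against parental, where 44.0% and 42.2% of all genes were. Their medians were -0.41 and -0.073. For shScr minus parental 8 of the 9 were above 0, with a median of 0.39, where 48.8% of all genes were below 0.

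The p24 proteins, which line vesicles and bind GPI-anchored and other cargo, held the fourth member apart from both controls. TMED7 had 80.0 on the shDKK3 array, 229 on shScr and 247 on parental and was at -1.22 to both (2.33-fold lower than each), with a yardstick of 0.36. A read-through locus, TMED7-TICAM2, overlaps TMED7 in RefSeq, and the probe's place in either transcript was not given in the sources used here. TMED2 had 1047, 1630 and 1229 and was at -1.08 to shScr and -0.44 to parental. In 10 of 12 alternative settings (thresholds aside) TMED2 was at least 2-fold below shScr, with a range of -1.19 to -0.64. TMED10 was at -0.24 and -0.56, and TMED9 at -0.0017 and 0.042. In the deposited values TMED9 (1791 on shDKK3, 1250 on shScr), TMED10 (903 and 830), COPE, SEC16A and GOLGA2 were, like ARF1, above shScr, so their side of 0 depends on the scaling. Of the SNAREs that fuse these vesicles, BET1 was lowest, with 108 on shDKK3, 195 on shScr and 207 on parental (-0.72 and -0.69). A second BET1 probe was not above the blanks on shDKK3 or parental and differed by -0.066 and -0.011. SEC22B was at -0.53 and -0.44, GOSR1 at -0.36 and -0.13, and GOSR2 at 0.052 and 0.71.

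Other genes of the pathway were taken from a list of 118 tethers, COG and TRAPP subunits, coat regulators, SNAREs, RABs and YIP proteins, of which 110 were measured and 108 compared. Against shScr, 10 (9.26%) were at least 2-fold lower and 4 (3.70%) higher, with a median of -0.14, where 4.48% of all genes were lower and 2.96% higher. Against parental 5 (4.63%) were lower and 5 (4.63%) higher, with a median of -0.013, where 3.04% of all genes were lower and 0.862% higher. In the brightest class of genes, 14.3% of the 56 other pathway genes there were lower against shScr and 7.14% against parental, beside 11.4% and 8.23% of all genes of the class, so their share of lower genes lay near the background. Lower than both controls were 5 of the 108 (4.63%), where 2.05% of all genes were. In the brightest class 7.14% of the other pathway genes and 5.80% of all genes were lower than both. TVP23B, annotated as FAM18B, had 181 on shDKK3, 880 on shScr and 632 on parental (-2.24 and -1.61). SCFD1, which assists SNARE assembly at the ER-Golgi border, was at -1.18 and -1.56. BLZF1, golgin-45, was at -1.46 and -1.06. RAB1A, the GTPase that recruits USO1, was at -1.16 and -1.04, and ARFGEF1, an exchange factor for ARFs, at -1.09 and -1.17.

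Higher than both controls were 2 of these genes (1.85%), where 0.564% of all genes were, and both are paralogs of members. ARF5 had 3871 on the shDKK3 array, 710 on shScr and 1441 on parental, differences of 1.91 and 1.07, where ARF4 and ARF1 were below 0. COPZ2 had 191, 32.9 and 58.3 and differences of 1.65 and 1.30, where COPZ1 was at 0.27 and 0.66. ARF5 also differed between the controls, at -0.83 for shScr minus parental.

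Gene length moved with the differences on these arrays. Across 15073 genes, the difference to shScr had a Spearman rho of -0.24 with annotated genomic length (Pearson r -0.20 on log10 length), and across 14888 genes the difference to parental had rho -0.30 (r -0.25). Genes are not independent replicates, and all share the same arrays. Between the controls rho was 0.0079. In the 48 members rho was -0.29 against shScr and -0.33 against parental. Members were long, with a median of 40790 bases against 25969 for all genes, and 3 of 48 lay in the shortest of 3 equal classes of length. In the middle class, 27 members had a median difference to shScr of -0.40 against 0.02 for all genes, and in the longest class 18 members had -0.41 against -0.023. After a running median over length was removed, the median of the members was -0.39 against shScr and -0.20 against parental, and GOLGA4, ERGIC2, COPB1 and TMED7 stayed at least 2-fold lower than each control. Members at least 2-fold lower than on shScr then numbered 6, where 4.54% of all genes were. SEC24A, at -0.98, no longer reached 2-fold. TMED7, at 12827 bases, is among the shortest members, and GOLGA4, at 123609 bases, is the longest.

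**Figure D3:**
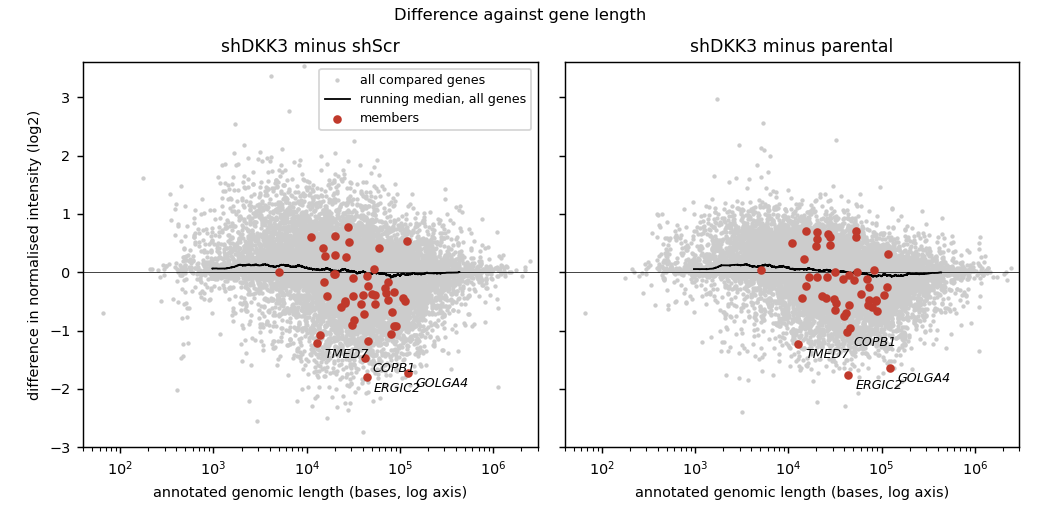
Difference in normalised log2 intensity against annotated genomic length (log axis) for all compared genes (light grey), with their running median (line) and the members (red), for shDKK3 minus shScr and shDKK3 minus parental. The running median declines slightly with length, and most members lie below it, with GOLGA4, ERGIC2, COPB1 and TMED7 lowest.

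The scaling of the arrays shifts all genes, so the members were also read relative to the median of all genes. Scaling to the 75th percentile put that median at 0.36 against shScr and 0.26 against parental, and the authors' deposited table put it at 0.30 against shScr. The members were below it in both, at -0.32 and -0.43 against shScr. Over the 12 settings that change the values or genes (thresholds aside), the median of the members minus that of all genes was from -0.73 to -0.0090 against shScr. The upper end came from 1 setting, which used the second deposited column as local background. Its values were higher at higher spot brightness (r 0.886 to 0.932 over the probes of an array). In that setting ERGIC2 was 0.20 and GOLGA4 0.10 above shScr, both were below parental (-1.45 and -0.33), and of the 4 members COPB1 alone was at least 2-fold lower than each control.

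**Figure D4:**
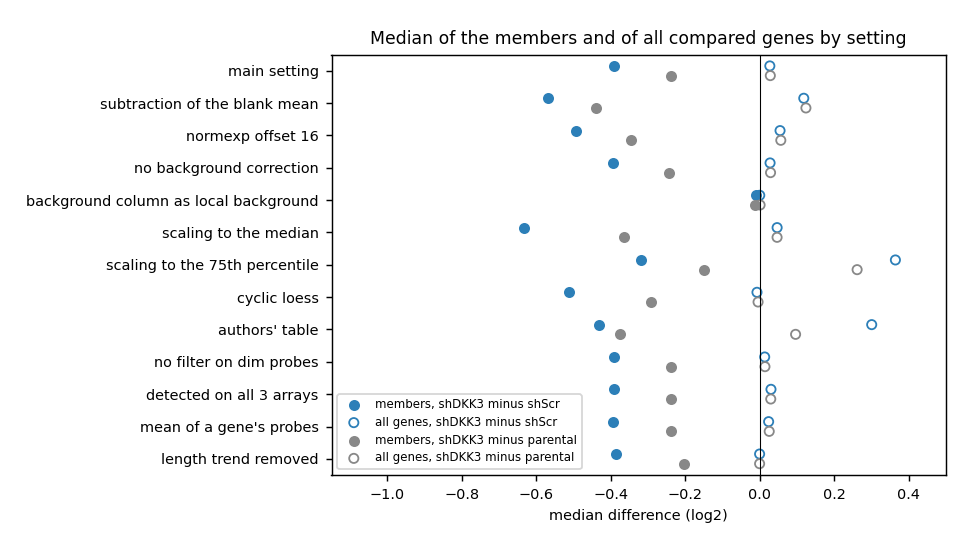
Median difference (log2) of the members (filled) and of all compared genes (open) on the shDKK3 array, minus shScr in blue and minus parental in grey, under the main setting and 12 alternatives. The filled points lie left of the open ones in each row, by little where the second deposited column served as background.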

How the data were processed

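Total RNA of each HSC-3 line was amplified to amino allyl RNA, labelled with Cy5 and hybridised to a 1-colour array, per the labels' protocols. The authors deposited spot medians and, in a second table, normalised linear intensity values. How those intensities were made was worked out from the values: each equals the spot minus the mean of the blank spots, divided by a constant per array that sets the median to 25. A genome build for the probe annotation was not given in the sources used here.

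From the spot medians, normexp correction fitted on all spots of an array (offset 50) and quantile normalisation over 24451 gene probes were run with limma 3.58.1 in R 4.3.3. A probe counted as detected at more than 2 SD above the mean of the 2680 blanks, which held for 81.3% of probes on shDKK3, 80.1% on shScr and 78.5% on parental. A gene took its probe with the highest mean level and was compared where detected on the brighter array of the pair. With 1 array per condition no test could be run, and a difference of 2-fold was used to count genes. The number of arrays limits the precision, and copies of 2 positive controls within an array (24 copies each, SD 0.08 to 0.14 and 0.09 to 0.19 on the log2 scale) show spot noise alone.

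The members and lists were chosen with earlier results of these data known. Full values are given for members at least 2-fold apart in a comparison, for the member furthest from shScr in each other role, and for paralogs. Other pathway genes are named where apart from both controls. The steps after normalisation ran in Python 3.11.15. Background correction and normalisation were tried on simulated data, a copy of the parental array with known folds put in. Alternatives changed the background, scaling, filter, choice of probe, length trend and threshold.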

Additional observations from a re-analysis of the deposited data

How the results depend on the processing

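GOLGA4 and ERGIC2 were at least 2-fold lower than each control under each alternative except the second deposited column as local background, and TMED7 under each except that one and the 3-fold threshold. COPB1 was except with 75th-percentile scaling, the authors' deposited table and the 3-fold threshold. No paired analysis was possible because each condition had 1 array with no replicate number. Values that moved follow, some beside counts of the same setting that did not move. The cause was not tested beyond what each setting does by construction. The share of all genes lower or higher than both controls was computed for the main setting alone.

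With the blank mean subtracted, 11 members were lower and 1 higher against shScr (median -0.57), 9 lower against parental (median -0.44) and 8 lower than both. All genes were then 14.3% lower and 9.45% higher against shScr, and 10.9% lower and 4.69% higher against parental, so the larger counts of members stand beside larger counts of all genes. Of the other pathway genes 21 were lower and 8 higher against shScr, and 13 lower and 8 higher against parental. With the local background, 1 member was higher against shScr (median -0.0086), 2 lower and 1 higher against parental (median -0.012), 1 lower and 2 higher between shScr and parental, and 1 lower than both. ERGIC2 (0.20) and GOLGA4 (0.10) turned against shScr, and SEC23B turned between shScr and parental (-0.36). Other pathway genes had 3 lower against shScr, and 0 lower and 3 higher against parental.

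With median scaling, 13 members were lower against shScr (median -0.63). Of the other genes 19 were lower and 2 higher (median -0.31), and against parental 8 were lower and 3 higher. Over all genes that scaling called 8.48% lower and 1.505% higher against shScr, and 4.82% lower and 0.43% higher against parental. With 75th-percentile scaling the medians of the other genes turned to 0.0096 and 0.15, and 3 were lower against parental. All genes were then 4.23% lower and 3.61% higher against shScr, and 2.61% lower and 1.35% higher against parental. Cyclic loess and removal of the length trend each left 3 other genes higher against parental. Of all genes 0.622% were higher against parental with loess and 0.591% with the length trend removed. Against shScr, loess called 5.77% of all genes lower and 2.36% higher.

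In the authors' deposited table, 9 members were lower and 2 higher against shScr (median -0.43), 8 lower against parental (median -0.38) and 7 lower than both. The median between shScr and parental turned from 0.094 in the main setting to -0.012. Other genes had 17 lower and 11 higher against shScr, and 13 lower and 8 higher against parental. All genes were 10.6% lower and 13.4% higher against shScr, and 10.4% lower and 4.08% higher against parental.

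At 1.5-fold, 14 members were lower and 3 higher against shScr, where 11.5% of all genes were lower and 9.54% higher. Against parental 10 were lower and 6 higher, where 9.38% of all genes were lower and 6.83% higher. Between shScr and parental 1 was lower and 4 higher, where 3.78% of all genes were lower and 3.03% higher. Members lower than both controls numbered 8 and those higher 2. Other genes had 25 lower and 15 higher against shScr, and 16 lower and 16 higher against parental. At 3-fold, 2 members were lower against shScr, 2 against parental and 2 than both, where 0.74% and 0.25% of all genes were lower against shScr and against parental. Between shScr and parental 0 were lower and 0 higher. Other genes had 1 lower and 2 higher against shScr, and 1 lower and 0 higher against parental. Of all genes 0.38% were higher against shScr and 0.087% against parental.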
